A study of Homo sapiens with 4 samples.

Results

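Small nucleolar RNA (snoRNA) host genes were examined in MDA-MB-231 cells, a triple-negative human breast cancer line, after inhibition of TEAD by MGH-CP1. The 10 genes were listed by symbol, with earlier results of these data known: SNHG1, SNHG5, SNHG6, SNHG7, SNHG8, SNHG12, SNHG15, SNHG16, GAS5 and ZFAS1. Each had a single row among the 48162 genes measured. MGH-CP1 blocks the palmitoylation of the TEAD transcription factors, which bind DNA for the Hippo pathway coactivators YAP and TAZ. Cells received vehicle control for 24 h (2 libraries) or MGH-CP1 for 24 h (2 libraries). The sample labels give the dose as 10 µM and the study's methods as 10 mM. Both groups are the same line, and no source states whether the libraries of a group came from separate cultures, so the p-values below measure only the spread between these libraries.

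SnoRNAs guide the chemical modification of ribosomal and other RNAs, and most human snoRNAs are cut out of the introns of host genes. Box C/D snoRNAs guide methylation with fibrillarin, and box H/ACA snoRNAs guide pseudouridylation with dyskerin. In several noncoding hosts the spliced exons carry short reading frames with early stop codons, so that the spliced RNA is translated briefly and removed by nonsense-mediated decay (NMD). Many hosts start transcription inside a run of pyrimidines (a 5′ terminal oligopyrimidine, or TOP, start), as ribosomal protein genes do. The spliced host RNA was measured here from poly-A RNA; the snoRNAs themselves were not.

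The promoter windows of the members that changed, and of SNHG12, are shown because host genes are known for their start sites and because a TEAD site was looked for. RefSeq (GRCh38.p14) gave a window of 250 bases before and 50 bases after the start for 8 of the 10 members. The sequences run 5′ to 3′ on the strand of the gene, and capitals mark a run of at least 4 pyrimidines that contains the annotated start base. The first is the whole window of SNHG1, chr11:62855836-62856135, minus strand. The others span 40 bases on either side of the start, for SNHG16 at chr17:76557724-76557803 (plus strand, with no such run), for SNHG5 at chr6:85678694-85678773 (minus strand) and for SNHG12 at chr1:28581834-28581913 (minus strand).
SNHG1: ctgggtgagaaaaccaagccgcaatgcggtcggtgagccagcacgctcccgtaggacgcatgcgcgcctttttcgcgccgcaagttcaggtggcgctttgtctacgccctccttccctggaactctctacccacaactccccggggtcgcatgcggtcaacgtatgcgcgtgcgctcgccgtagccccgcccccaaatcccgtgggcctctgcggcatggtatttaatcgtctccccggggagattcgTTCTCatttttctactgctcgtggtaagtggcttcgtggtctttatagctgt
SNHG16: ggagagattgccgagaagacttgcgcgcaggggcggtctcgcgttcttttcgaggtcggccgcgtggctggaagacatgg
SNHG5: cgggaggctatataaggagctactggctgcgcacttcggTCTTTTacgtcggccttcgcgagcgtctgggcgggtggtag
SNHG12: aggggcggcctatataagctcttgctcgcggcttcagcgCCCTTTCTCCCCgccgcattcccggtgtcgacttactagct

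A pyrimidine run of at least 4 bases covered the annotated start in 6 of the 8 windows, against 12.1% of 35116 RefSeq promoter windows of the same length. In SNHG5, SNHG7, SNHG12 and ZFAS1 the start base was a C followed by 3 pyrimidines, which holds for 5.45% of all windows. The runs were 5 bases long in SNHG1, 6 in SNHG5, SNHG7 and SNHG8, 7 in ZFAS1 and 12 in SNHG12. SNHG16 and GAS5 had no run at the RefSeq start, which says only that these letters are not there. In the SNHG16 window a pyrimidine run, ttcttttc, begins a few bases after that start. The TEAD core site GGAATG (reverse strand CATTCC, both strands searched) was found in the window of 1 member, SNHG12, where it is read as cattcc a few bases after the pyrimidine run, and in 14.0% of all windows. The E-box CACGTG of MYC and MAX, which reads the same on both strands, was found in the window of SNHG7 alone among the 8, and in 7.26% of all windows. In these members the motifs overlap neither each other nor a pyrimidine run. A match describes the sequence and was not tested as a site.

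Expression was given as FPKM, fragments scaled by gene length and by the total on genes of the library. A comparison between libraries is therefore one of shares of that total. Multiplied by gene length, the values were whole fragments (within 0.001) for 100% of genes: 25455533 and 25508824 with vehicle, and 17997221 and 17577930 with MGH-CP1. Each host held between 194 and 2337 fragments per library. Mitochondrially encoded genes took 0.418% to 0.447% of fragments in the vehicle control and 1.53% to 1.57% in the MGH-CP1 libraries. Scaling without them moved no host gene's call. The markers of the line were present for VIM (259 to 281 FPKM), CD44 (198 to 221) and AXL (149 to 293), the oestrogen receptor gene ESR1 was at most 0.0243 and PGR at most 0.00286, CDH1 was 0.289 to 0.638, and EPCAM was not near zero at 12.4 to 16.4. The TEAD target genes CYR61, CTGF and ANKRD1, 3 of 3 measured, all fell. CYR61 went from 376 ± 10.8 FPKM (mean ± SD, n = 2) to 222 ± 9.78 (n = 2). No spike-in was used, so levels are relative within a library, and a change in all RNA per cell cannot be told apart from none.

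The host genes together held nearly the same share of the RNA in both conditions. They made up 0.0389% and 0.0432% of fragments with vehicle, and 0.0394% and 0.0406% with MGH-CP1. The MGH-CP1 shares lay inside the range of the vehicle control shares. The plot of FPKM in each library shows the hosts singly.

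**Figure D1:**
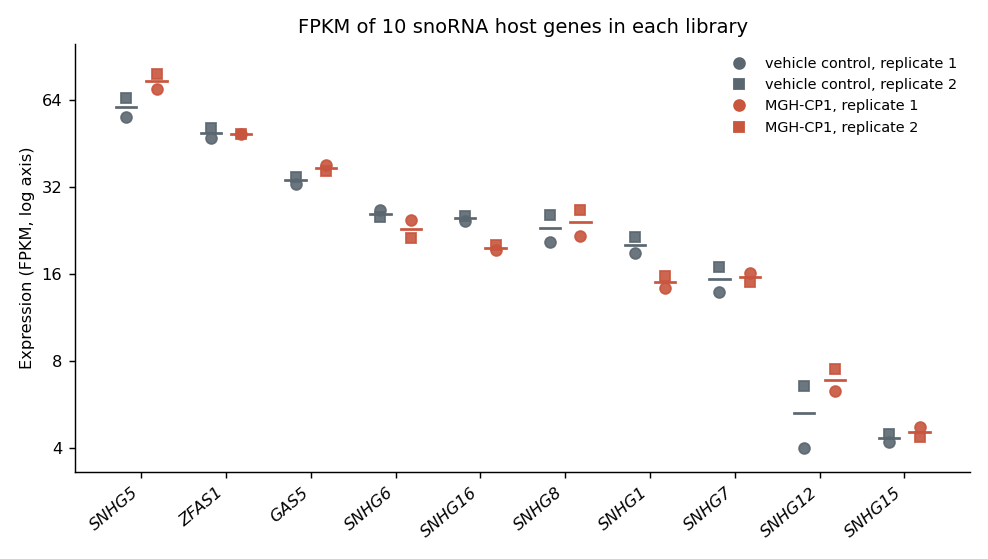
FPKM of the 10 snoRNA host genes on a log axis, ordered by the vehicle control mean; grey points are the 2 vehicle control and red points the 2 MGH-CP1 libraries (circles replicate 1, squares replicate 2), with lines at the means. The red points of SNHG1, SNHG6 and SNHG16 lie below both grey points and those of SNHG5 and GAS5 above them. Those of SNHG7, SNHG8, SNHG12, SNHG15 and ZFAS1 overlap the grey points.

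In vehicle-treated cells SNHG5 was the most abundant host, followed by ZFAS1, GAS5, SNHG6, SNHG16, SNHG8, SNHG1, SNHG7, SNHG12 and SNHG15. The mean FPKM fell along this order from 60.5 ± 6.73 for SNHG5 to 4.33 ± 0.190 for SNHG15 (SD, n = 2 for each mean here and below). SNHG5 had a higher mean over the 4 libraries than 92.7% of the 12080 genes tested, and SNHG15 than 27.4%. The vehicle control ranges of SNHG6 and SNHG16, of SNHG16 and SNHG8, of SNHG8 and SNHG1, and of SNHG12 and SNHG15 overlapped, so these neighbours did not differ beyond their spread. The other neighbours did not overlap. With MGH-CP1 the first 3 places and the last 2 were kept, SNHG8 came to stand after GAS5, and SNHG7 (15.6 ± 0.853) came to lie beside SNHG1 (15.0 ± 0.983), with overlapping ranges.

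The question for each gene was whether its level differed between MGH-CP1 and vehicle control beyond the spread of the libraries. Genes with a mean of at least 1 FPKM were compared on log2(FPKM + 1) with limma, which shares the variance estimate between genes, in a two-sided test whose p-values were adjusted by Benjamini-Hochberg over the 12080 genes, at a threshold of 0.05. All 10 members passed the filter. A fold change on this scale understates that of low genes, so the ratio of mean FPKM is given too. An exact permutation test of 2 libraries against 2 cannot go below p = 0.333.

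Of the 10 hosts, 2 fell (SNHG1 and SNHG16), 1 rose (SNHG5) and 7 were not called. Over all genes tested, 23.8% were called lower and 27.1% higher, so neither count stood above that background. Both MGH-CP1 libraries lay above both vehicle control libraries for 2 hosts and below for 3, against 39.8% and 37.4% of all genes tested. The median log2 fold change of the members was 0.04, with an SD of 0.08 over the 4 ways to pair a treated with a control library, beside 0.01 for all genes tested. The sign of the members' median rested on single libraries: it was −0.081 without vehicle control replicate 1 and 0.13 without vehicle control replicate 2. An ordinary linear model per gene, without sharing of variance, called none of the 10 hosts (at an unadjusted p under 0.05, 0 higher and 1 lower). Over all genes tested that model called 9 higher and 4 lower.

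**Figure D2:**
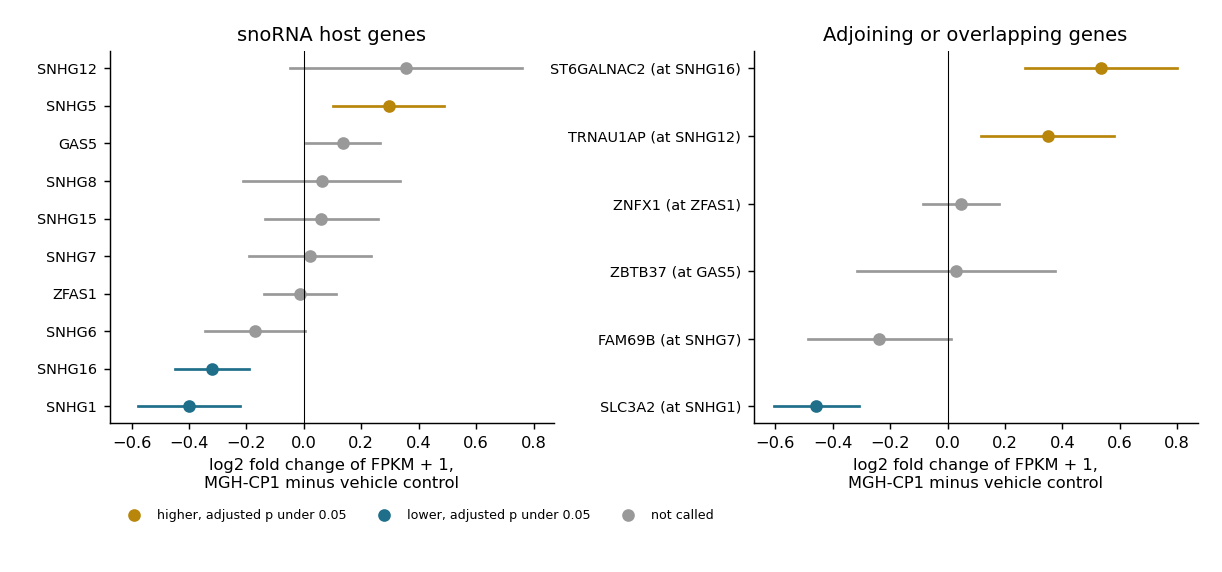
Log2 fold change of FPKM + 1 (MGH-CP1 minus vehicle control, horizontal axis) with the 95% interval of the limma fit, for the host genes (left) and for the tested genes that overlap them or start beside them on the other strand (right); gold is called higher, blue lower and grey not called at an adjusted p of 0.05. SNHG1 and SLC3A2, at −0.40 and −0.46, lie at the lower end of both panels.

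SNHG1, which carries a cluster of box C/D snoRNAs in its introns, showed the largest fall among the members. The gene (ENSG00000255717) lies on the minus strand of chromosome 11 at 62619460 to 62623386 in hg19, and the table gives it an exonic length of 2768 bases. It was at 18.9 and 21.5 FPKM with vehicle and at 14.3 and 15.7 with MGH-CP1, from 1333, 1515, 714 and 765 fragments. Both treated libraries were below both controls. The mean fell from 20.2 ± 1.79 to 15.0 ± 0.983, a ratio of 0.744. The log2 fold change was −0.40 (SE 0.08, 95% interval −0.58 to −0.22, limma adjusted p = 0.00325), and 90.2% of tested genes had a more positive change. It stayed called with any single library left out (−0.49 to −0.31), but the adjusted p was 0.0567 when no filter on low genes was applied.

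SLC3A2, the heavy chain of amino acid transporters at the cell surface, starts beside SNHG1 on the other strand. Its first base in the table is 132 bases from that of SNHG1, and the nearest of its 3 RefSeq starts is at base 27 of the SNHG1 window printed above, 224 bases from the SNHG1 start at base 251. SLC3A2 was at 88.2 and 95.3 FPKM with vehicle and at 63.2 and 70.1 with MGH-CP1, with no overlap. The log2 fold change of −0.46 (SE 0.06, limma adjusted p = 0.000732) was close to that of SNHG1. The ratio of SNHG1 to SLC3A2 within a library was 0.215 and 0.225 with vehicle and 0.227 and 0.224 with MGH-CP1. The ratio overlapped between conditions while both of its terms did not. The pair does not overlap in the table, so fragments could not be shared between the listed gene bodies.

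**Figure D3:**
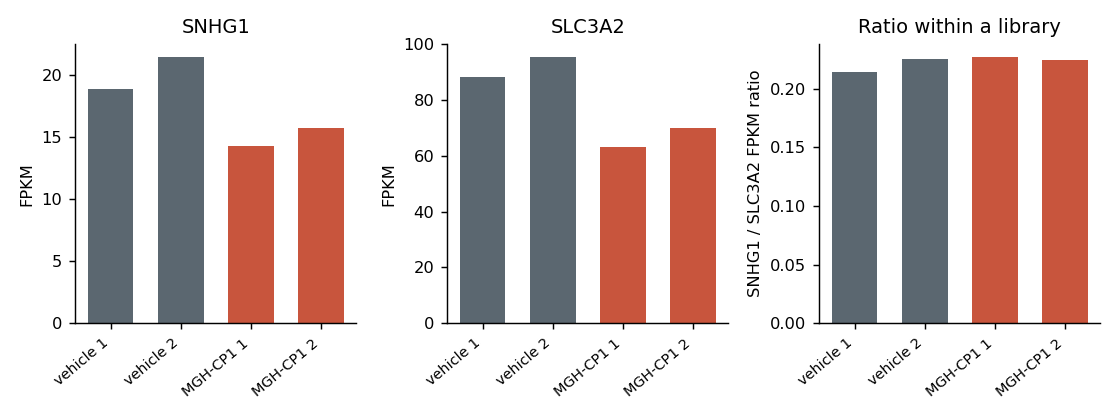
FPKM of SNHG1 (left), of SLC3A2 (middle) and the ratio of SNHG1 to SLC3A2 (right) in each of the 4 libraries, on axes that start at 0; grey bars are vehicle control and red bars MGH-CP1. The red bars are the lower ones for both genes, while the ratio stays between 0.215 and 0.227.

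SNHG16 fell as well. It hosts box C/D snoRNAs and is transcribed from the plus strand of chromosome 17 (ENSG00000163597, 74553848 to 74561430 in hg19, exonic length 3607 bases). It held 2244 and 2337 fragments with vehicle and 1259 and 1275 with MGH-CP1, which correspond to 24.4, 25.4, 19.4 and 20.1 FPKM. The treated libraries lay below the controls with little spread in either group. The mean went from 24.9 ± 0.679 to 19.8 ± 0.506, a ratio of 0.793, and the log2 fold change was −0.32 (SE 0.06, 95% interval −0.45 to −0.19, limma adjusted p = 0.00202). With any single library left out it lay between −0.35 and −0.29 and stayed called. The ratio of SNHG1 to SNHG16 was 0.774, 0.845, 0.739 and 0.782 in the same library order, so the groups overlapped.

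ST6GALNAC2, a sialyltransferase gene on the opposite strand, overlaps the end of SNHG16 by 1639 bases and moved the other way. It was low, at 1.04 and 0.929 FPKM with vehicle and 1.87 and 1.88 with MGH-CP1. Its log2 fold change was 0.53 (SE 0.12, limma adjusted p = 0.00575). The sources used here do not say whether fragments were counted by strand, so the values of overlapping genes are uncertain, although ST6GALNAC2 held at most 190 fragments against at least 1259 for SNHG16.

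SNHG5, host of a pair of box C/D snoRNAs and the most abundant member, was the one called higher. The gene (ENSG00000203875) lies on the minus strand of chromosome 6 at 86370710 to 86388451 in hg19, with an exonic length of 1029 bases. It was at 55.7 and 65.2 FPKM with vehicle and at 69.8 and 78.8 with MGH-CP1. The treated libraries were above the controls, although the gap between the groups (65.2 to 69.8) was smaller than the spread inside either. The mean rose from 60.5 ± 6.73 to 74.3 ± 6.38, a ratio of 1.23, with a log2 fold change of 0.30 (SE 0.08, 95% interval 0.10 to 0.49, limma adjusted p = 0.0196). The call was lost without vehicle control replicate 1 (0.18, adjusted p = 0.0692) and without MGH-CP1 replicate 2 (0.21, adjusted p = 0.124), as well as without the filter on low genes (adjusted p = 0.166).

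GAS5, a host of many box C/D snoRNAs whose spliced RNA is a known target of NMD, did not pass the test. It was at 32.8 and 34.8 FPKM with vehicle and 38.1 and 36.3 with MGH-CP1. All treated values were above all controls, by a ratio of means of 1.10. The log2 fold change was 0.14 (SE 0.06, 95% interval 0.01 to 0.26, limma adjusted p = 0.0736). It was called higher under quantile normalization (0.16, adjusted p = 0.039) and without vehicle control replicate 2 (0.18, adjusted p = 0.0487). The gene lies on chromosome 1, minus strand, at 173833038 to 173838020 in hg19, and overlaps the zinc finger gene ZBTB37 of the other strand by 801 bases. ZBTB37 held at most 100 fragments per library and had a log2 fold change of 0.03 (limma adjusted p = 0.883).

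Relative to GAS5 within the same library, 5 of the other 9 members were lower with MGH-CP1 without overlap, against 49.7% of all other genes tested. GAS5 itself lay higher in both treated libraries, so the count is near the background and says nothing particular of the hosts. The ratio of SNHG1 to GAS5 was 0.577 and 0.617 with vehicle and 0.376 and 0.433 with MGH-CP1. That of SNHG16 to GAS5 was 0.746 and 0.730 with vehicle and 0.509 and 0.554 with MGH-CP1. The same separation held for SNHG6 (0.811 and 0.723 against 0.646 and 0.585), for ZFAS1 (1.45 and 1.47 against 1.29 and 1.34) and, by a narrow margin, for SNHG15 (0.128 and 0.128 against 0.125 and 0.121). The ratios of SNHG5, SNHG7, SNHG8 and SNHG12 to GAS5 overlapped. Ratios to a gene in the same library do not depend on how the libraries were scaled.

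SNHG6 lay below the controls in both treated libraries but was not called. The gene, on the minus strand of chromosome 8 at 67833919 to 67838633 in hg19, holds a box C/D snoRNA. Its FPKM was 26.6 and 25.2 with vehicle and 24.6 and 21.2 with MGH-CP1, from 438, 416, 287 and 242 fragments. The log2 fold change was −0.17 (SE 0.07, 95% interval from −0.34 to just above 0, limma adjusted p = 0.0921). It was called lower under median-ratio scaling (−0.22, adjusted p = 0.0337) and without MGH-CP1 replicate 1 (−0.27, adjusted p = 0.0261). SNORD87, the only one of 18 snoRNA rows in the table that lies inside a member, held 0 fragments in all 4 libraries, which allows up to 3 fragments per library.

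SNHG12 had the largest positive log2 fold change of the members and the widest interval. It hosts mainly box H/ACA snoRNAs and lies on chromosome 1, minus strand, at 28905050 to 28909495 in hg19. Its FPKM was 4.0 and 6.55 with vehicle and 6.28 and 7.50 with MGH-CP1, from 194, 318, 215 and 251 fragments. The second vehicle control library lay between the treated ones, so the groups overlapped. The log2 fold change was 0.36 (SE 0.17, 95% interval −0.05 to 0.76, limma adjusted p = 0.124). The size of the change depended on single libraries. It lay between 0.06 and 0.65 with any single library left out, and was 0.65 without vehicle control replicate 2. With all libraries kept, SNHG12 was called higher with limma voom on the fragments (0.42, adjusted p = 0.0273) and with the replicate number as a block.

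TRNAU1AP, which acts with the selenocysteine transfer RNA, meets the end of SNHG12 on the other strand, sharing 2 bases. It was at 8.90 and 11.1 FPKM with vehicle and at 12.3 and 13.6 with MGH-CP1, without overlap. Its log2 fold change was 0.35 (SE 0.10, limma adjusted p = 0.0204), a call that was lost without vehicle control replicate 1 (adjusted p = 0.0949) or MGH-CP1 replicate 2 (adjusted p = 0.113). The ratio of SNHG12 to TRNAU1AP was 0.450 and 0.592 with vehicle and 0.512 and 0.551 with MGH-CP1, and overlapped.

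For the remaining members the groups overlapped and the intervals of the change included 0. ZFAS1, which starts opposite ZNFX1 and hosts box C/D snoRNAs, had the change nearest to 0 of the members. It lies on chromosome 20, plus strand, at 47894715 to 47905797 in hg19. It was at 47.4 and 51.3 FPKM with vehicle and 48.9 and 48.6 with MGH-CP1, a log2 fold change of −0.01 (95% interval −0.14 to 0.11, limma adjusted p = 0.841). ZNFX1, an RNA helicase-like gene that overlaps ZFAS1 by 249 bases, was at 0.05 (limma adjusted p = 0.514), and the ratio of ZFAS1 to ZNFX1 overlapped between conditions.

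SNHG7, host of box H/ACA snoRNAs on chromosome 9 (minus strand, 139615818 to 139622636 in hg19), was at 13.9 and 16.9 FPKM with vehicle and at 16.2 and 15.0 with MGH-CP1. Its log2 fold change of 0.02 had a 95% interval of −0.19 to 0.23 (limma adjusted p = 0.862). FAM69B, a gene of the other strand that overlaps it by 2685 bases, was at 4.21 and 3.81 FPKM with vehicle and at 2.91 and 3.61 with MGH-CP1, with a log2 fold change of −0.24 (limma adjusted p = 0.101). FAM69B was called lower under quantile normalization (−0.34, adjusted p = 0.0342) and without MGH-CP1 replicate 2 (−0.36, adjusted p = 0.0416).

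SNHG8 hosts a single box H/ACA snoRNA and lies on chromosome 4, plus strand, at 119199864 to 119200978 in hg19. It varied as much within as between groups, at 20.6 and 25.7 FPKM with vehicle and 21.6 and 26.8 with MGH-CP1, and its log2 fold change was 0.06 (95% interval −0.21 to 0.34, limma adjusted p = 0.689). SNHG15, also a host of a box H/ACA snoRNA, on chromosome 7 (minus strand, 45022622 to 45026560 in hg19), was the lowest member, at 4.20 and 4.47 FPKM with vehicle and 4.74 and 4.38 with MGH-CP1. Its log2 fold change was 0.06 (95% interval −0.14 to 0.26, limma adjusted p = 0.577). The interval of SNHG8 includes a rise as large as that of SNHG5, and neither interval includes a fall as large as that of SNHG1.

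The libraries of a group differed in the hosts as well. Centred over the 4 libraries, the median log2 profile of the members was −0.09 and 0.09 with vehicle and 0.04 and −0.01 with MGH-CP1, so the spread between controls exceeded the distance between the conditions. The first control was the lower one for 9 of the 10 hosts, SNHG6 being the exception. The genes whose centred profile was nearest to this median (Euclidean distance over 4 libraries) were the ribosomal protein gene RPL38 (0.0220), GTPBP3 (0.0240), ITGB1BP1 (0.0254), NEIL2 (0.0282) and PSMD9 (0.0356).

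Other noncoding snoRNA hosts gave a similarly mixed picture. Of those tested, 23.1% were called higher and 15.4% lower, against 27.1% and 23.8% of all genes tested. Neither share stood above that background. Of 19 genes found, 13 were tested, of which 3 were called higher and 2 lower, with a median log2 fold change of 0.14 (SD 0.08 over the library pairs). The number called higher was 1 without either MGH-CP1 replicate 1 or MGH-CP1 replicate 2. DANCR, a host of a box H/ACA snoRNA known for holding back differentiation, changed more than any of the 10 members. It was at 43.7 and 46.2 FPKM with vehicle and at 28.9 and 29.4 with MGH-CP1, a log2 fold change of −0.61 (SE 0.05, limma adjusted p = 8.3e-05). SNHG26 was at 3.54 and 3.69 against 2.45 and 2.51 (−0.41, SE 0.09, limma adjusted p = 0.00683). SNHG19 was at 6.09 and 5.85 against 7.15 and 10.3 (0.46, SE 0.14, limma adjusted p = 0.0233), from at most 62 fragments, and SNHG18 was at 4.91 and 4.10 against 6.27 and 5.72 (0.35, SE 0.10, limma adjusted p = 0.0178).

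Protein-coding genes that carry snoRNAs in their introns fell more often than they rose. Of 48 tested, 23 were called lower (47.9%) and 5 higher (10.4%), against 23.8% and 27.1% of all genes tested. The median log2 fold change was −0.13 (SD 0.03). The 24 that encode ribosomal proteins, which share the TOP start with many noncoding hosts, had a median near 0 with 4 called higher and 5 lower. Of the 24 others, 18 were called lower and 1 higher, with a median of −0.33 (SD 0.02), and 14 to 17 were called lower with any single library left out. HSPA8, a constitutive chaperone, was at 825 and 776 FPKM with vehicle and at 471 and 480 with MGH-CP1 (−0.75, SE 0.05, limma adjusted p = 3.3e-05). NCL, which encodes the nucleolar protein nucleolin, was at 208 and 207 against 126 and 130 (−0.69, SE 0.05, limma adjusted p = 3e-05).

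Among the coding hosts called higher, the translation factor gene EIF4A1 was at 1.19 and 1.47 FPKM with vehicle and at 2.44 and 2.66 with MGH-CP1 (0.61, SE 0.12, limma adjusted p = 0.00315). It held only 53 to 82 fragments and shares exons with a readthrough gene, so its value is uncertain.

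**Figure D4:**
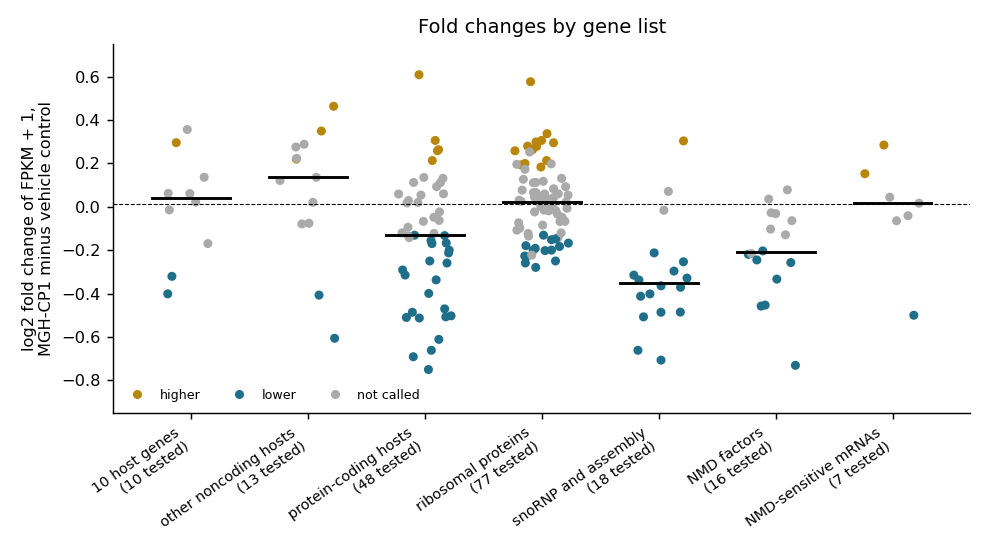
Log2 fold change of FPKM + 1 (MGH-CP1 minus vehicle control, vertical axis) of each tested gene by list, gold for called higher, blue for called lower and grey for not called; black bars are the list medians and the dashed line the median of all genes tested. The 10 host genes and the ribosomal protein genes centre near 0, at 0.04 and 0.02, while the snoRNP and assembly genes centre at −0.35.

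Most genes for the proteins that bind and assemble snoRNAs fell. Of 18 genes for snoRNA-protein particle (snoRNP) subunits and assembly factors, 15 were called lower (83.3%) and 1 higher (5.56%). Over all genes tested the shares were 23.8% and 27.1%. The median log2 fold change of the 18 was −0.35 (SD 0.05), and 3 of these genes are also coding hosts. Among the 8 core subunits 7 were called lower, with a median of −0.39. With any single library left out, 13 to 14 of the 18 were called lower.

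The methyltransferase FBL (fibrillarin) of the box C/D particle was at 108 and 119 FPKM with vehicle and at 83.3 and 87.8 with MGH-CP1, a log2 fold change of −0.40 (SE 0.06). The box C/D scaffold genes NOP56 (−0.51) and NOP58 (−0.49) and the shared RNA-binding subunit NHP2L1 (−0.25) fell too. The pseudouridine synthase DKC1 (dyskerin) of the box H/ACA particle was at 54.1 and 56.6 FPKM with vehicle and at 32.0 and 37.4 with MGH-CP1, a log2 fold change of −0.66 (SE 0.07, limma adjusted p = 0.000256). Its partners GAR1 (−0.37) and NHP2 (−0.21) were lower, whereas NOP10 had 0.07 and was not called (limma adjusted p = 0.239).

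NOLC1, a chaperone of snoRNPs in the nucleolus and Cajal bodies, fell furthest of the list. It was at 70.2 and 75.5 FPKM with vehicle and at 43.1 and 45.4 with MGH-CP1 (−0.71, SE 0.06, limma adjusted p = 5.7e-05). PIH1D1, a subunit of the R2TP complex that assembles box C/D particles, went the other way, at 60.0 and 64.9 against 80.6 and 74.0 (0.30, SE 0.06, limma adjusted p = 0.00425). The other R2TP genes RUVBL1 (−0.49), RUVBL2 (−0.32) and RPAP3 (−0.36) fell.

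NMD removes the spliced RNA of hosts such as GAS5, so its factors were listed too. Of 16 tested, 8 were called lower (50%, against 23.8% of all genes tested) and the other 8 were not called. The median log2 fold change was −0.21 (SD 0.02). The helicase gene UPF1 was at 41.4 and 42.1 FPKM with vehicle and at 35.6 and 35.9 with MGH-CP1 (−0.22, SE 0.05, limma adjusted p = 0.0065). UPF3B was at 12.8 and 13.1 against 7.17 and 7.61 (−0.73, SE 0.07, limma adjusted p = 9.9e-05), and the kinase gene SMG1 at 10.0 and 10.2 against 6.87 and 7.31 (−0.46, SE 0.07, limma adjusted p = 0.00101).

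Messenger RNAs known to be removed by NMD did not move together. The shares called over all genes tested were 27.1% higher and 23.8% lower. Of 7 tested, 2 were called higher and 1 lower, with a median log2 fold change near 0.02; with any single library left out 1 was called higher. UPP1 was at 22.6 and 25.0 FPKM with vehicle and at 29.1 and 29.2 with MGH-CP1 (0.28, SE 0.06, limma adjusted p = 0.00604), TBL2 had a log2 fold change of 0.15 (limma adjusted p = 0.0471), and GADD45B one of −0.50 (limma adjusted p = 0.000939). ATF4, the stress response transcription factor, had 0.02 (limma adjusted p = 0.841). GAS5, among the hosts the one best known as an NMD target, stood at 0.14.

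Cytosolic ribosomal protein genes, the main class of TOP genes, centred near the median of all genes tested (0.01), as the host genes did. Of 77 tested, 13 were called higher (16.9%) and 15 lower (19.5%), against 27.1% and 23.8% of all genes tested. Their median log2 fold change was 0.02 (SD 0.06), and 24 of the listed genes are also coding hosts. The counts depended on single libraries. Called higher were 29 without vehicle control replicate 2 and at most 3 without any other single library, and called lower were 7 without MGH-CP1 replicate 1 and 6 without MGH-CP1 replicate 2. At the ends of the list were RPS10 (0.58) and RPS21 (0.34) among those called higher, and RPL6 (−0.28) and RPL4 (−0.26) among those called lower. RPS10 was low, at 1.21 and 2.36 FPKM with vehicle and 2.99 and 3.13 with MGH-CP1. It held only 24 to 47 fragments, so its value is uncertain.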

How the data were processed

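RNA of MDA-MB-231 cells was sequenced in 4 libraries as paired reads of 150 bases. The authors deposited FPKM for 48162 genes with coordinates and gene length, and per the labels' processing notes CASAVA 1.8, STAR and hg19 were named. The counting tool, the annotation release and the strand setting are not given in the sources used here. FPKM multiplied by length gave whole fragments. On log2(FPKM + 1), the 12080 genes whose mean FPKM reached 1 were fitted with limma 3.58.1 in R 4.3.3 (variance trend, 5.97 prior degrees of freedom, two-sided) and adjusted by Benjamini-Hochberg at 0.05. Lists were described by counts and medians. The fit was tested on simulated data, where the changes set were larger than those of the hosts. How well changes of the hosts' size are found was not tested.

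The members, the lists and the tests were chosen with earlier results of these data known. Lists came from general knowledge, and 11 of the other noncoding hosts were matched by identifier, with 4 symbols without a row. Named were all members, genes overlapping them or starting on the other strand within 2000 bases, in each list the top 2 called genes in either direction, the core snoRNP genes, UPF1 and the 5 genes nearest in profile. One gene that this rule names is not reported here. Other named genes (ANKRD1, NOLC1's list partners RUVBL1, RUVBL2 and RPAP3, and ATF4) were chosen after their values were seen. Alternatives were a pseudocount of 0.1, no filter, a minimum mean FPKM of 5, scaling by median ratios, quantile normalization, totals without mitochondrial genes, the replicate number as a block, no variance trend, no sharing of variance between genes, limma voom on the fragments and leaving out each library.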

Additional observations from a re-analysis of the deposited data

How the results depend on the processing

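Across 14 alternatives no called result changed direction, and 594 of 714 values were labelled as kept. A single gene was kept if its call held, and a median or share if it stayed within the library spread. A count of genes called was kept if it stayed within a set fold of the main count, so it could differ. Hosts called lower, at 3 under median-ratio scaling against 2 in the main fit, were labelled as kept. Hosts called higher (1) became 0 without the filter on low values, 2 under quantile normalization (SNHG5 and GAS5), 0 without the variance trend, 0 without sharing of variance between genes, 2 with limma voom on the fragments, and 0 to 3 with a library left out. Hosts called lower (2) became 1 without the filter and 0 without sharing of variance, and stayed at 2 to 3 with a library left out. At an unadjusted p under 0.05, limma called 1 host higher without the filter, 1 without the trend, 1 without vehicle control replicate 1 and 0 without MGH-CP1 replicate 2, and the per-gene model without sharing of variance called 0 higher and 1 lower. Over all genes, 1844 were called lower without the filter, where 24878 genes were tested, and 9 higher and 4 lower without sharing of variance. The members' median log2 fold change ranged from −0.081 to 0.13 with a library left out. Without sharing of variance, SNHG1 had an adjusted p of 0.140, SNHG16 of 0.0727 and SNHG5 of 0.264, and without the trend SNHG5 had 0.0600. The signs of SNHG7, SNHG8, SNHG15 and ZFAS1, none of them called, differed in some alternatives. SNHG15 could not be tested at a mean FPKM of at least 5. Beyond the construction of each alternative, the cause was not tested.

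The libraries share replicate numbers in the labels. Same-numbered deviations from the group means correlated at 0.0777, with only 2 pairs, so the libraries were taken to share only a number. With the replicate block, 2 hosts were called higher (SNHG12 joined at an adjusted p of 0.0121) and SNHG6 was called lower (adjusted p = 0.0319).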
